A study of Mus musculus with 12 samples.

Results

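Low-dose curcumin was compared with carbon tetrachloride injury alone in whole mouse liver, using the 3 low-dose and 3 control libraries of a 12-library series of bulk RNA sequencing. The 6 libraries were chosen by their labels. All mice were wild-type C57BL/6J, 6 weeks old at the start, and each was injected into the peritoneum with 200 µL of 7.5% carbon tetrachloride (CCl4) in olive oil, 2 times a week for 6 weeks. The control group had this injury and no curcumin. The low group was also given curcumin by gavage, at 25 mg/kg daily for 2 weeks. The remaining 6 libraries, from mice given 50 mg/kg (medium) or 100 mg/kg (high), share the fit and are used for 2 further comparisons. Every liver was injured, and no liver without CCl4 was analysed here. The labels call the libraries of a group biological replicates. They do not say whether control mice were gavaged with vehicle, nor whether cages, each with 3 mice, followed the groups.

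Carbon tetrachloride is turned into a toxic radical by cytochrome P450 enzymes of the hepatocytes around the central vein. Repeated dosing kills these cells, draws in leukocytes and activates stellate cells, which lay down collagen. Curcumin is the yellow polyphenol of turmeric. Hepatocytes surviving such injury keep up, to varying degrees, their work in glucose and lipid storage, haem and bile acid synthesis, detoxification and the secretion of plasma proteins, and each of these is carried by well-known genes.

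The 6 libraries held 39751127 to 70376474 counts. Mitochondrially encoded genes took 58.6% to 64.2% of the counts in the controls, 63.7% and 64.1% in low 1 and 2, and 43.0% in low 3. The difference in mean share was -4.30 percentage points (low 56.9% ± 12.1 against control 61.2% ± 2.81; SD, n = 3 each; two-sided exact permutation p = 0.8, where 0.1 is the smallest possible). Low 3 stood apart from its group. Its counts outside mitochondrial genes and their nuclear copies came to 25425772, against 5180318 and 8067295 in low 1 and 2. The median over genes of the SD of log2 CPM was 0.41 over the 3 low libraries and 0.36 over the 3 controls. Over low 1 and 2 alone it was 0.23. An SD over 2 libraries tends to be smaller than over 3 at the same spread, so 0.23 is not directly comparable. All levels below are read counts scaled to a common library size (CPM) after TMM normalisation, given in the order of replicates 1, 2 and 3. Differences are log2 low minus control from edgeR. Their standard errors (SE) were worked back from its test, as the absolute difference over the square root of the F statistic. In bulk tissue, fewer cells of a type and less RNA per cell cannot be told apart.

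No gene passed the test. Of 16839 genes tested by edgeR's quasi-likelihood method, 0 (0.0% in either direction) had a Benjamini-Hochberg adjusted p under 0.05, and the smallest adjusted p was 0.472. At an unadjusted p under 0.05 there were 419 genes higher (2.49%) and 589 lower (3.5%). DESeq2 called 8 higher (0.0418%) and 24 lower (0.125%) of 19129 genes, limma voom with library weights called 0 and had 1734 at an unadjusted p under 0.05. The differences were above 0 for 51.1% of genes and below 0 for 48.9%, with a median of 0.01 and quartiles of -0.31 and 0.35. All 3 low libraries lay above all 3 controls for 1248 genes (7.41%) and below them for 1071 (6.36%). These shares are the background for the counts of non-overlapping genes below. Genes and lists are accordingly described by their levels, and none is said to have changed.

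The 15 genes per direction with the smallest p, at a mean log2 CPM of at least 1, all had non-overlapping groups. Picking by p in the same libraries favours separated groups, so this is not further evidence. Those reported here are 13 higher and 14 lower genes. On the higher side they are, in order of p, Dvl2, Tcim, Lsm3, Pfkfb3, Mfsd2a, Alas1, Prdm2, Bcl7c, Sra1, Dnajc2, Serpina3k, Rpl37rt and Lrrc28, each with an edgeR adjusted p of 0.764. They include a WNT signal transducer (Dvl2), a regulator of glycolysis (Pfkfb3), a lysophospholipid transporter (Mfsd2a), the first enzyme of haem synthesis (Alas1) and a ring protein of RNA processing (Lsm3). Rpl37rt is a retrotransposed copy of a ribosomal protein gene, so its reads may come from its parent. On the lower side they are Tnfaip2, Egr1, Fgd2, Igsf6, Fmnl1, Pou2f2, Itgb2, Junb, Jun, Csf2rb, Cyp3a44, Pim1, Clec4f and Relb. They include leukocyte genes (Itgb2, Csf2rb, Fmnl1), the Kupffer cell lectin Clec4f, immediate early genes (Egr1, Jun, Junb) and the NF-κB subunit gene Relb. Without control 2 the differences of Igsf6 and Pou2f2 went from -1.95 to -1.16 and from -2.06 to -1.14, and without control 3 that of Jun went from -1.87 to -1.19. Pim1, a serine/threonine kinase induced by cytokines, had 9.54, 13.1 and 12.4 CPM in control and 5.74, 6.62 and 4.37 CPM in low. The difference was -1.07 ± 0.26 (SE; edgeR adjusted p = 0.764), and every low library was below every control.

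**Figure D1:**
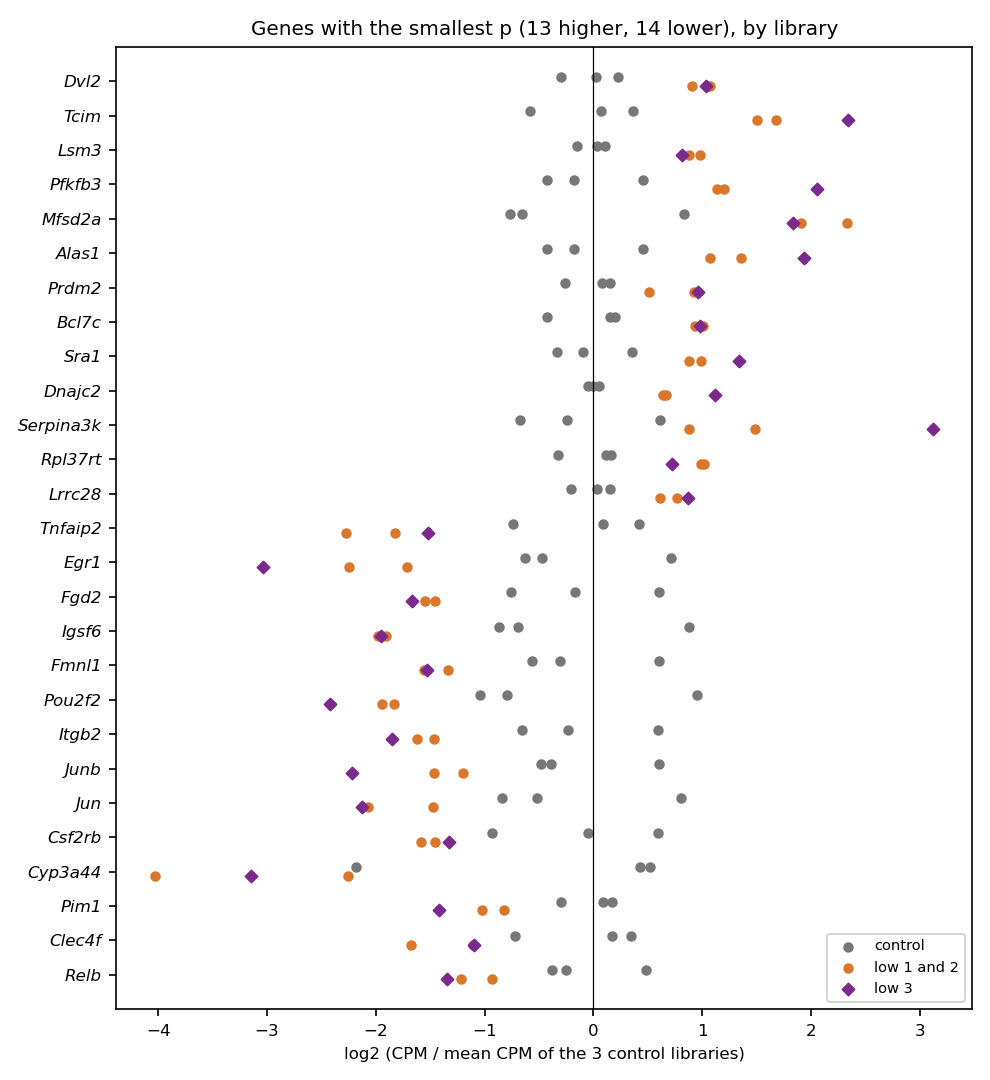
Level of each of the 27 genes in each library, as log2 of its CPM over the mean CPM of the 3 controls (x axis), for control (grey), low 1 and 2 (orange circles) and low 3 (purple diamonds). The genes were picked by p in these data, and the groups do not overlap for any of the 27. Low 3 lies far above low 1 and 2 for Serpina3k, at 1268 CPM against 267 and 409 CPM.

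Promoter sequence was looked up for all 30 genes of the 2 sets of 15 in RefSeq (GRCm38.p6), for the 250 bases before the transcription start. A window was held for 8 of the 15 higher and 10 of the 15 lower genes. Of the 5 motifs searched on both strands, the E-box CACGTG, read by clock and MYC-family factors, was found in 3 of the 8 higher genes and 1 of the 10 lower (Pim1), against 6.86% of 27025 genes with a window. TGACTCA, an AP-1 motif, was found in 1 higher gene (Dvl2) and in no lower gene, against 5.16% of all genes. TGACGTCA, the cyclic AMP response element, the κB motif of NF-κB and the glucocorticoid response element, the last pair given by name only, were in none of the 18. Their shares over all genes were 1.77%, 1.65% and 0.0111%. The 3 windows with an E-box are shown because they are the motif-bearing promoters of the higher genes, with motif matches in capitals. They lie at chr2:11502091-11502340 (minus strand) for Pfkfb3, chr11:70000342-70000591 (plus strand) for Dvl2 and chr7:127708767-127709016 (minus strand) for Bcl7c. A match is a description of the letters only.
Pfkfb3: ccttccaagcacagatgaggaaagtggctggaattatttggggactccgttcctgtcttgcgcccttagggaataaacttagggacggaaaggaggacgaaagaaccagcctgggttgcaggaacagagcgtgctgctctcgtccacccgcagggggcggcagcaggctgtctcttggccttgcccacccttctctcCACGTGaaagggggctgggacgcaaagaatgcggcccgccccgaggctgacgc
Dvl2: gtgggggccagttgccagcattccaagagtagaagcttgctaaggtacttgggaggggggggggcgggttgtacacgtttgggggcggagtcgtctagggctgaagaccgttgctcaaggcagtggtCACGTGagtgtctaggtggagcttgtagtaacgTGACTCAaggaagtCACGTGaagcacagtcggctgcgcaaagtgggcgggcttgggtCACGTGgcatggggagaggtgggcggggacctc
Bcl7c: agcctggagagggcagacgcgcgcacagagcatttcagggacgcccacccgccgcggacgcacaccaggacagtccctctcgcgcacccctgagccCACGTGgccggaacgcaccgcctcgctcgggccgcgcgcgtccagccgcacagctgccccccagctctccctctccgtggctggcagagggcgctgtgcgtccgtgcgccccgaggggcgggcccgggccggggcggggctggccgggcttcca
The Dvl2 window holds CACGTG at 3 places with TGACTCA between the first pair, and the other windows hold it at a single place. Pfkfb3, which makes the activator of phosphofructokinase, had 3.57, 2.30 and 1.94 CPM in control and 5.97, 5.70 and 10.8 CPM in low (1.53 ± 0.37). Dvl2, the Dishevelled protein that relays WNT signals, had 5.56, 3.85 and 4.84 CPM in control and 8.90, 10.0 and 9.73 CPM in low (1.01 ± 0.23). Bcl7c, a subunit of the SWI/SNF chromatin remodelling complex, had 19.2, 18.5 and 12.4 CPM in control and 32.0, 33.5 and 33.0 CPM in low (0.97 ± 0.26). The low libraries lay above the controls for all 3 genes, and closely together for Dvl2 and Bcl7c.

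Some genes of glycogen and glucose handling had separated groups, as did 7.41% (higher) and 6.36% (lower) of all tested genes. Ppp1r3b, which targets protein phosphatase 1 to glycogen, had 27.3, 40.7 and 16.9 CPM in control and 64.3, 58.4 and 59.5 CPM in low (1.10 ± 0.39). Pygl, the liver glycogen phosphorylase that works in the opposite direction, had 32.6, 24.2 and 20.2 CPM in control and 37.8, 54.6 and 37.2 CPM in low (0.75 ± 0.31). These were the 2 non-overlapping and higher members of 18 glycogen genes, of which 9 lay higher and 9 lower, 1 of the lower ones without overlap (median 0.02). Gpi1, the second enzyme of glycolysis, had 44.7, 38.5 and 41.6 CPM against 81.6, 107 and 55.3 CPM in low (0.97 ± 0.30). Pklr, liver pyruvate kinase, had 43.0, 53.9 and 41.1 CPM against 63.9, 98.2 and 63.1 CPM (0.71 ± 0.30, and 0.47 without low 2). Hk3, a hexokinase best known from leukocytes, lay the other way, at 4.25, 4.91 and 2.10 CPM in control and 1.83, 1.54 and 2.02 CPM in low (-1.06 ± 0.30). Of 26 tested genes of glycolysis and its control, 5 were non-overlapping and higher and 2 non-overlapping and lower, with a list median of 0.20 (0.03 without low 3, 0.12 without control 3 and 0.35 without low 1). Of 23 gluconeogenesis and FOXO1 genes, 4 were non-overlapping and higher and 0 lower (median 0.22, from 0.098 without control 2 to 0.52 without control 1). The transcription factor genes themselves lay higher: Foxo3 had 14.6, 14.3 and 13.2 CPM in control against 19.9, 21.3 and 24.0 CPM in low (0.63 ± 0.23), and Foxo1 differed by 0.78 ± 0.27 (0.44 without low 3).

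Lipid genes differed by list. Of 20 tested lipin and lipid droplet genes, 15 lay higher and 6 of these had an unadjusted p under 0.05, with 4 non-overlapping and a median of 0.54 (0.39 without low 3). Mfsd2a, which carries lysophospholipids into cells and is induced by fasting in liver, had 47.0, 15.5 and 16.8 CPM in control and 98.8, 132 and 93.9 CPM in low (2.04 ± 0.50; DESeq2 adjusted p = 0.0246). The groups did not overlap. Lpin1, a phosphatidate phosphatase, rested on 1 library, with 25.2, 18.4 and 17.2 CPM in control and 26.4, 32.4 and 174 CPM in low (1.94 ± 0.63, and 0.53 without low 3). Plin5, a droplet coat protein, overlapped between the groups (1.69 ± 0.51, and 0.90 without low 3). Of 24 de novo lipogenesis genes, 17 lay higher and 4 of these did not overlap (median 0.31, but 0.13 without low 2, 0.16 without control 1 and 0.52 without control 2). Agpat2, an acyltransferase of triglyceride synthesis, had 13.3, 14.5 and 11.3 CPM in control and 20.8, 25.5 and 26.0 CPM in low (0.89 ± 0.35). Thrsp, a lipogenic gene responsive to thyroid hormone and carbohydrate, overlapped by the pair control 2 and low 3, with 104, 184 and 91.8 CPM in control and 256, 419 and 162 CPM in low (1.14 ± 0.50, and 0.73 without low 2). Acss2, which makes acetyl-CoA from acetate, lay lower with overlap, at 21.4, 61.7 and 73.2 CPM in control and 11.2, 31.6 and 29.0 CPM in low (-1.12 ± 0.48). Fatty acid oxidation genes under PPARα had 29 of 34 members higher, 1 of them non-overlapping, while 2 lower members did not overlap. Their median of 0.47 went to 0.04 without low 3 and 0.29 without control 2. Genes of cholesterol synthesis and uptake were split, with 14 of 25 higher, 11 lower and 0 non-overlapping (median 0.03), and without low 3 there were 6 higher and 19 lower. Acot3, a peroxisomal acyl-CoA thioesterase, had 30.6, 48.7 and 60.3 CPM in control and 18.8, 16.3 and 20 CPM in low (-1.34 ± 0.49), with no overlap.

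Haem synthesis was led by its rate-limiting enzyme. Alas1 had 128, 82.5 and 69.3 CPM in control and 196, 238 and 357 CPM in low (1.5 ± 0.38; edgeR adjusted p = 0.764; DESeq2 adjusted p = 0.00783). Every low library lay above every control, and without low 3 the difference was 1.21. Cpox, a later enzyme of the pathway, had 10.1, 7.93 and 8.74 CPM in control and 10.5, 13.7 and 18.2 CPM in low (0.67 ± 0.35, and 0.44 without low 3). Of 16 tested genes of the pathway, 4 were non-overlapping and higher and 1 non-overlapping and lower, with a median of 0.18 (0.11 without low 3 and 0.31 without control 3).

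Some hormone-related genes had separated groups, again beside 7.41% (higher) and 6.36% (lower) of all tested genes. Zbtb16, a zinc finger gene strongly induced by glucocorticoids, had 0.453, 0.302 and 0.134 CPM in control and 1.72, 1.01 and 1.64 CPM in low (2.30 ± 0.56). Gadd45g, a stress gene that also responds to glucocorticoids, had 9.84, 3.61 and 3.43 CPM in control and 19.5, 24.1 and 13 CPM in low (1.75 ± 0.58). Both were non-overlapping and higher, at low levels in the case of Zbtb16. Of the 18 glucocorticoid receptor targets 14 lay higher (median 0.54, 0.28 without low 3 and 0.31 without control 3), 3 without overlap, while 2 were non-overlapping and lower, the metallothioneins described below. Among the liver's nuclear receptors, the orphan receptor gene Nr2f6 lay higher without overlap (0.85 ± 0.31, and 0.54 without low 2). Nr1h2, the oxysterol receptor LXRβ, had 32.1, 34.3 and 39.4 CPM in control and 22.1, 25.1 and 20.3 CPM in low (-0.65 ± 0.24), with no overlap.

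Growth hormone acts on liver through STAT5 and sets the difference between male and female livers. Xist, expressed in female cells, had 24818 to 69440 counts in the 6 libraries, and the Y-linked gene Ddx3y had 0 to 3. By these counts all 6 livers were female. Cux2, a transcriptional repressor typical of female liver, had 62.1, 120 and 142 CPM in control and 33.9, 24.7 and 13.6 CPM in low, a difference of -2.16 ± 0.64 with no overlap. Cyp3a44 and Cyp3a16, female-typical P450 genes of near-identical sequence whose reads may be shared, also lay lower without overlap. Cyp3a44 had 12.3, 13 and 2.01 CPM in control and 1.91, 0.559 and 1.03 CPM in low (-2.99 ± 0.71; DESeq2 adjusted p = 0.0107), so control 3 was close to low 1. A1bg, another female-typical gene, had 11.6, 30.9 and 0.446 CPM in control and 0.546, 0.810 and 1.90 CPM in low, with control 3 below all low libraries (-3.66 ± 1.13, and -2.42 without control 2). Cish, an inhibitor induced by STAT5, had 8.46, 10.1 and 4.50 CPM in control and 11, 17.1 and 13.4 CPM in low (0.84 ± 0.32), while Socs3, the inhibitor more tied to STAT3, had 17.0, 14.4 and 21.8 CPM against 9.36, 10.7 and 5.80 CPM (-1.04 ± 0.43). These genes lay in both directions: of 24 female-biased genes 12 lay higher and 12 lower, with 1 and 4 non-overlapping. Of 22 male-biased genes, 15 lay higher and 3 of these did not overlap. The male-biased median of 0.17 ran from -0.44 without low 3 to 0.55 without control 3. Serpina3k, a male-biased serpin, had 222, 123 and 91.6 CPM in control and 267, 409 and 1268 CPM in low (2.15 ± 0.61, and 1.21 without low 3), and Mup20, a major urinary protein, went from 1.91 ± 0.72 to 0.29 without low 3.

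Detoxification genes did not separate as families. Of 33 CYP2 enzymes, 1 was non-overlapping and higher and 2 non-overlapping and lower, and the median of 0.38 was -0.04 without low 3. The medians of the glutathione S-transferases (0.33 over 23 genes), the glucuronosyl- and sulfotransferases (0.20 over 29) and the CYP1, CYP3 and CYP4 enzymes (0.02 over 21) were -0.07, -0.01 and -0.44 without that library. The glutathione S-transferase median was 0.63 without low 2, and that of the glucuronosyl- and sulfotransferases 0.10 without low 1. Cyp2e1, the P450 that activates CCl4 and a gene named here for that role, had 238, 153 and 299 CPM in control and 214, 310 and 425 CPM in low, with overlap (0.46 ± 0.46; 0.18 without low 3). Genes of the NRF2 antioxidant response, on which curcumin is often studied, were split 13 higher and 13 lower, with a median of -0.01. Of these, 3 were non-overlapping and higher and 1 non-overlapping and lower. In this list Osgin1, an oxidative stress-induced growth inhibitor, overlapped between the groups. It had 43.0, 89.8 and 196 CPM in control and 51.1, 52.5 and 43.1 CPM in low (-1.16 ± 0.45, and -0.44 without control 3).

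Mt1 and Mt2 encode metallothioneins, small proteins that bind zinc and copper and are induced by metals and glucocorticoids, and both lay lower. Their list of 11 metallothionein and metal handling genes had 6 higher and 5 lower (median 0.06, and -0.17 without low 3). In it 1 gene was non-overlapping and higher and 2 non-overlapping and lower. Mt1 had 172, 159 and 159 CPM in control and 47.3, 59.8 and 122 CPM in low (-1.10 ± 0.42). Mt2 had 98.8, 101 and 92.5 CPM in control and 22.1, 23.9 and 62.0 CPM in low (-1.44 ± 0.46; edgeR adjusted p = 0.781). The controls lay within a narrow range, every low library was below them, and low 3 was the nearest, so that without it the differences were -1.61 and -2.09. Gm45774, which the annotation places on the opposite strand within Mt2, had 26.5, 28.8 and 30.9 CPM in control and 5.50, 4.64 and 5.02 CPM in low (-2.51 ± 0.53; edgeR adjusted p = 0.764). It passed with DESeq2 (adjusted p = 0.00223) and with edgeR on the 6 libraries alone (adjusted p = 0.0123). Strand handling in the counting was not stated in the labels or processing notes, so reads of Gm45774 and Mt2 may not be separable.

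Bile acid synthesis genes pointed in both directions. Cyp7a1, the rate-limiting enzyme of the classical pathway, had 17.4, 36.4 and 19.1 CPM in control and 8.35, 11.8 and 16.2 CPM in low (-1.0 ± 0.56, and -0.59 without control 2). Cyp8b1, the sterol 12-alpha-hydroxylase that makes cholic acid, had 8.51, 5.82 and 24.9 CPM in control and 2.97, 3.38 and 5.25 CPM in low (-1.75 ± 0.73, and -0.88 without control 3). Acox2, a peroxisomal oxidase of side-chain shortening, had 4.63, 4.68 and 5.35 CPM in control and 5.46, 8.07 and 13.7 CPM in low (0.90 ± 0.35, and 0.47 without low 3). These 3 were the non-overlapping members among 18, of which 9 lay higher and 9 lower (median 0.00).

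**Figure D2:**
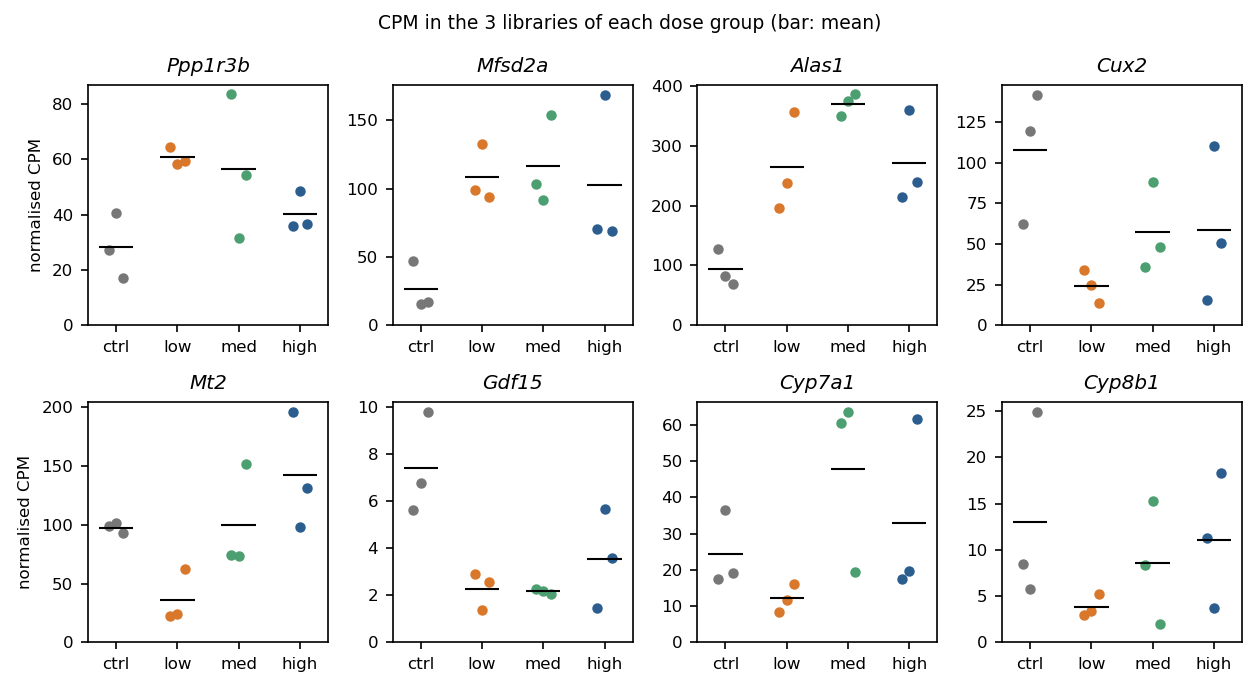
Normalised CPM (y axis, from 0) of 8 genes in the 3 libraries of each dose group, with the group mean as a bar. For Ppp1r3b, Mfsd2a and Alas1 the low libraries lie above the controls, for Cux2, Mt2, Gdf15, Cyp7a1 and Cyp8b1 below them, and the medium and high libraries of Cyp7a1 spread from 17.4 to 63.6 CPM.

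Stress genes differed by branch. Gdf15, a secreted marker of cellular stress, had 5.64, 6.77 and 9.79 CPM in control and 2.89, 1.37 and 2.57 CPM in low (-1.70 ± 0.44; edgeR adjusted p = 0.764). The groups were clearly apart. Other integrated stress response genes, Nupr1 and Trib3, had overlapping groups (-1.69 ± 0.58, and -0.73 without control 2; -1.12 ± 0.44), and the median of the 21 genes was -0.08 (-0.21 without low 3). Of 24 p53 target and apoptosis genes 18 lay lower and 5 of these did not overlap, while 2 were non-overlapping and higher. The median of -0.19 was -0.031 without low 2 and 0.03 with library totals as the scale. The lower members included Gadd45a, a growth arrest gene, at 2.69, 5.85 and 7.18 CPM in control and 1.64, 2.68 and 2.10 CPM in low (-1.29 ± 0.36). Bbc3, which encodes the cell death inducer PUMA, had 3.65, 6.72 and 6.53 CPM in control and 3.43, 2.93 and 2.29 CPM in low (-0.97 ± 0.28), where control 1 and low 1 were close. Cytosolic heat shock chaperones lay the other way, with 17 of 21 higher, 7 of them non-overlapping, and 0 non-overlapping and lower (median 0.49, and 0.20 without low 3). Hsph1, of the HSP110 family, had 8.93, 6.12 and 4.79 CPM in control and 14.2, 12.0 and 28.3 CPM in low (1.46 ± 0.48). Dnajb1, an HSP40 co-chaperone, had 8.78, 6.6 and 5.04 CPM in control and 10.8, 9.58 and 11.2 CPM in low (0.63 ± 0.25). In the unfolded protein response of the endoplasmic reticulum 19 of 22 genes lay higher, but none without overlap, and the median of 0.25 ran from -0.14 without low 3 to 0.50 without low 1.

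The circadian list held genes in both directions, as its members peak at different hours. Nr1d1, the repressor REV-ERBα, had 58.7, 55.9 and 97.5 CPM in control and 31.5, 37.7 and 31.7 CPM in low (-1.07 ± 0.33). Usp2, a rhythmic deubiquitinase, had 18.7, 20.2 and 24.3 CPM in control and 34.0, 41.3 and 33.2 CPM in low (0.78 ± 0.29). Nfil3 and Bhlhe41, repressors of the clock's output, lay lower (-0.77 ± 0.28 and -1.26 ± 0.44). None of these 4 overlapped between the groups. In all, 5 of the 21 tested clock genes were non-overlapping and lower and 2 non-overlapping and higher. The labels give no hour of sampling, and the part of time of day in these genes was not tested. The immediate early genes, 20 of 22 lower with 10 non-overlapping (median -0.89), respond to handling and to stimuli within minutes.

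WNT genes also lay in both directions, although Dvl2 and Tcim, a positive regulator of the pathway, headed the higher genes. Tcim had 18.9, 15.4 and 9.81 CPM in control and 41.6, 47.1 and 74.5 CPM in low (1.89 ± 0.44). Axin2, a feedback inhibitor and direct target of the pathway, had 4.48, 4.74 and 4.57 CPM in control and 2.61, 2.24 and 1.92 CPM in low (-1.03 ± 0.28). Tbx3, a further target expressed around the central vein, had 13.6, 13.1 and 13.5 CPM against 9.25, 11.3 and 6.39 CPM in low (-0.58 ± 0.26). Both targets thus lay lower without overlap while both upstream genes lay higher. Over the 31 tested WNT genes 13 lay higher and 18 lower (median -0.11, and 0.02 without low 2). Pericentral hepatocyte genes as a list had 16 of 24 higher, with 1 non-overlapping and higher and 3 non-overlapping and lower (median 0.17, from -0.05 without low 3 to 0.43 without low 2).

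Scar genes, the readout of the CCl4 model, overlapped for the most part. Of 17 collagens 12 lay lower and 1 of these did not overlap. That gene, Col15a1, encodes a basement membrane collagen and had 2.29, 4.06 and 3.01 CPM in control and 1.29, 1.29 and 1.31 CPM in low (-1.27 ± 0.46). The summed CPM of the 17 listed collagens was 228, 279 and 363 in control and 265, 276 and 343 in low. The list median of -0.13 was -0.59 without low 3, -0.40 without control 1 and 0.02 without control 3. Among 34 genes of the TGFβ pathway 18 lay higher and 16 lower, with a median of 0.05. Acvr1b, an activin receptor, had 4.76, 5.88 and 6.8 CPM in control and 4.10, 3.52 and 3.57 CPM in low (-0.64 ± 0.21), and Inhba, a subunit of activin A, had 6.95, 5.03 and 4.21 CPM against 8.70, 10.8 and 7.43 CPM (0.73 ± 0.27). Ligand and receptor lay in opposite directions, each without overlap. Of 38 cell cycle genes 29 lay lower, 6 of them without overlap and 0 non-overlapping and higher (median -0.45 with and without low 3). Many are near the detection limit: the list summed to 90.0, 107 and 98.0 CPM in control and 88.7, 73.5 and 79.3 CPM in low.

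Markers of the liver's cell types show what else differed between these samples. Stellate cell markers summed to 99.4, 99.7 and 95.9 CPM in control and 103, 83.7 and 158 CPM in low, with 0 of 19 non-overlapping. Sinusoidal endothelial markers gave 116, 129 and 84.5 CPM against 132, 87.1 and 170 CPM, with 0 of 23 non-overlapping. Hepatocyte markers lay higher in 18 of 18 but 2 without overlap, at 16503, 9806 and 9324 CPM in control and 11039, 8980 and 41408 CPM in low (median 0.50, and 0.06 without low 3). Of 14 cholangiocyte markers 10 lay lower and 3 of these did not overlap (median -0.55, but -0.25 without control 3 and -0.84 without control 1 or low 1). Sox9, a transcription factor of bile duct and progenitor cells, was at 0.780, 0.846 and 1.98 CPM in control and 0.507, 0.307 and 0.507 CPM in low (-1.44 ± 0.47, and -0.88 without control 3). Portal fibroblast and mesothelial markers, taken as 1 list, summed to 36.4, 93.6 and 88.3 CPM in control and 48.4, 39.0 and 38.9 CPM in low. Of these 14 markers 11 lay lower, 3 of them without overlap. The list median of -0.55 was 0.10 without control 3 and -0.85 without control 1. Leukocyte markers differed by cell type. Neutrophil markers summed to 42.8, 86.4 and 34.0 CPM in control and 23.6, 22.3 and 18.7 CPM in low, Kupffer cell markers to 181, 251 and 131 CPM against 126, 105 and 118 CPM, and B and plasma cell markers to 97.7, 152 and 105 CPM against 78.4, 70.3 and 81.5 CPM. These 3 sums did not overlap and were lower in low, with control 2 the highest in each. The Kupffer cell median went from -0.53 to -0.27 without control 2. A sum weighs its most abundant members. Of single markers, 12 of 12 neutrophil, 16 of 17 Kupffer cell and 18 of 18 B and plasma cell genes lay lower. Without overlap were 7, 3 and 7 of these, beside 6.36% of all tested genes. The neutrophil list includes the chemokine genes Cxcl1 and Cxcl2 and the B and plasma cell list Xbp1, which are not limited to these cells. Recruited macrophage and monocyte markers overlapped, at 42.0, 67.0 and 30.2 CPM against 38.6, 38.1 and 48.6 CPM, with 2 of 16 non-overlapping and higher and 2 lower. Their median of -0.21 was 0.20 without control 2. T and NK cell markers overlapped too, at 16.2, 24.2 and 10.6 CPM against 13.2, 17.1 and 11.3 CPM, with 7 of 22 higher (median -0.34, and 0.02 without control 2). Erythroid markers followed control 1 and 2, at 863 and 1373 CPM, while control 3 (182 CPM) lay below all low libraries (244, 389 and 264 CPM). The part of these cell and blood markers in the results for other genes was not tested.

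**Figure D3:**
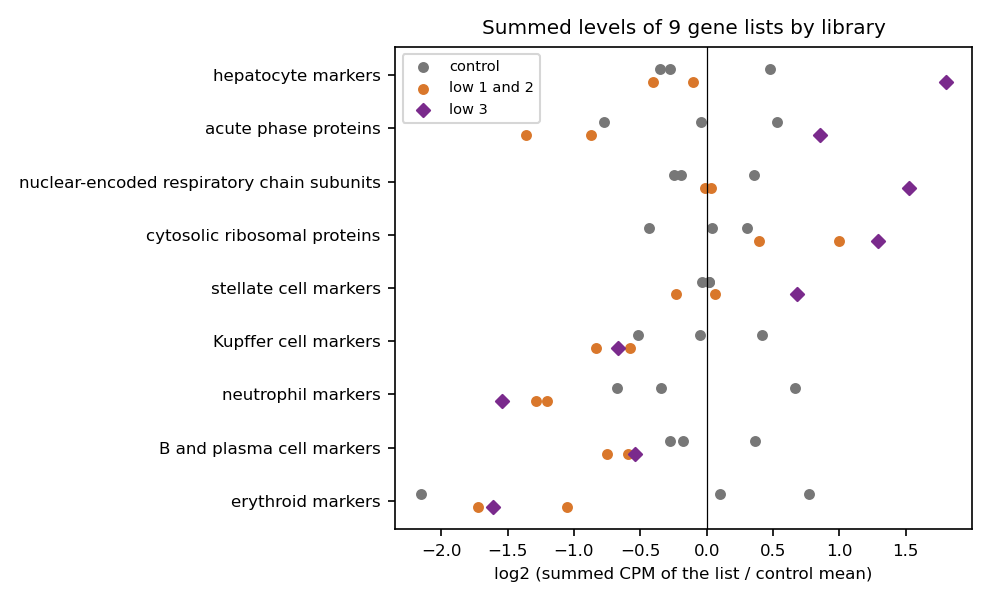
Summed CPM of 9 gene lists in each library as log2 over the control mean (x axis), for control (grey), low 1 and 2 (orange) and low 3 (purple diamonds). Low 3 is far to the right for hepatocyte markers and respiratory chain subunits, whereas all low libraries lie to the left of the controls for Kupffer, neutrophil and B and plasma cell markers.

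Ribosomal protein genes lay to one side. All 76 tested cytosolic ribosomal protein genes lay higher, 46 of them without overlap, with a median of 0.92 (0.67 without low 3). They summed to 3542, 2959 and 2125 CPM in control and 3778, 5753 and 7029 CPM in low. Fau, which encodes a ubiquitin-like fusion with ribosomal protein S30, had 28.5, 28.8 and 20.3 CPM in control and 44.8, 125 and 70.6 CPM in low (1.63 ± 0.58). Rps15 had 53.1, 50.6 and 36.8 CPM against 77.4, 188 and 112 CPM (1.43 ± 0.57). In both genes low 2, not low 3, was the highest. Processed pseudogenes, intronless copies of expressed genes, lay higher with them: of 663 tested, 80.1% lay higher and 138 (20.8%) did not overlap (median 0.74, and 0.39 without low 3). Among them 98 are named as ribosomal protein pseudogenes, 97 of which lay higher (median 1.2, and 0.71 without low 3). Reads of a pseudogene and its parent may not be separable, so these are not counted as further evidence. Proteasome subunits lay higher in 29 of 31, 10 of them without overlap (median 0.40, and 0.18 without low 3). Nuclear-encoded respiratory chain subunits lay higher in 64 of 65, but their median of 0.73 was 0.03 without low 3. Nuclear-retained long noncoding RNAs lay lower in 9 of 9, 2 of them without overlap (median -0.57, and -0.30 without control 3). Among these Malat1 had 104, 120 and 150 CPM in control and 91.7, 88.5 and 92.0 CPM in low (-0.46 ± 0.32, and -0.30 without control 3). The differences varied with transcript length: the fifth of protein-coding genes with the shortest transcripts had a median of 0.18 and the fifth with the longest -0.07. Without low 3 these were 0.00 and -0.08. The part of RNA quality in these lists was not tested.

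**Figure D4:**
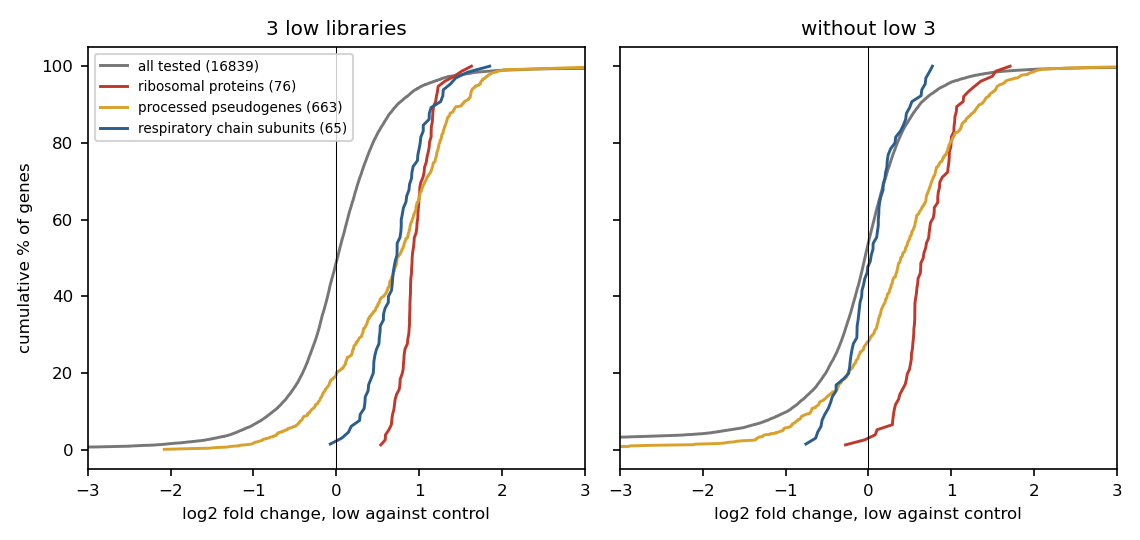
Cumulative percent of genes (y axis) against the log2 difference between low and control (x axis), with 3 low libraries (left) and without low 3 (right), for all 16839 tested genes, 76 ribosomal protein genes, 663 processed pseudogenes and 65 respiratory chain subunits. The ribosomal curve stays to the right in both panels (median 0.92 and 0.67), while the respiratory chain curve falls back onto that of all genes (median 0.73 and 0.03).

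Several lists of secreted proteins turned on low 3. Secreted plasma protein genes had a median of 0.56, and of -0.40 without it. Acute phase proteins, which the liver makes in inflammation, had a median of -0.27, of -1.07 without it and of 0.11 without low 2, with summed levels of 1438, 966 and 583 CPM in control and 545, 387 and 1801 CPM in low. The transcript of albumin (Alb) had 9074, 4385 and 3466 CPM in control and 3957, 3035 and 24998 CPM in low. Fabp1, the liver fatty acid binding protein, had 175, 218 and 2446 CPM in low 1 to 3, and the fibrinogen-like hepatokine Fgl1 23.7, 16.3 and 262 CPM, both highest in low 3. Lars2, the mitochondrial leucyl-tRNA synthetase, and Zc3h11a, an mRNA export factor, were lowest there, with 1065, 3280 and 369 CPM and with 135, 101 and 4.24 CPM. The search for nuclear copies required a match over at least 80%, so genes sharing a shorter stretch with mitochondrial RNA were not set apart. Whether the reads of Lars2 are its own was not tested. A few secreted proteins lay lower in every low library. F13b, a coagulation factor XIII subunit, had 32.3, 18.1 and 26.6 CPM in control and 13.3, 13.5 and 12.7 CPM in low (-0.97 ± 0.31). Itih3, an inter-alpha-trypsin inhibitor chain, had 247, 319 and 304 CPM in control and 139, 195 and 195 CPM in low (-0.72 ± 0.35). The folate enzyme Shmt1 showed the same tight separation, with 66.8, 74.6 and 81.9 CPM in control and 45.7, 44.0 and 45.5 CPM in low (-0.72 ± 0.24; edgeR adjusted p = 0.8; DESeq2 adjusted p = 0.014).

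**Figure D5:**
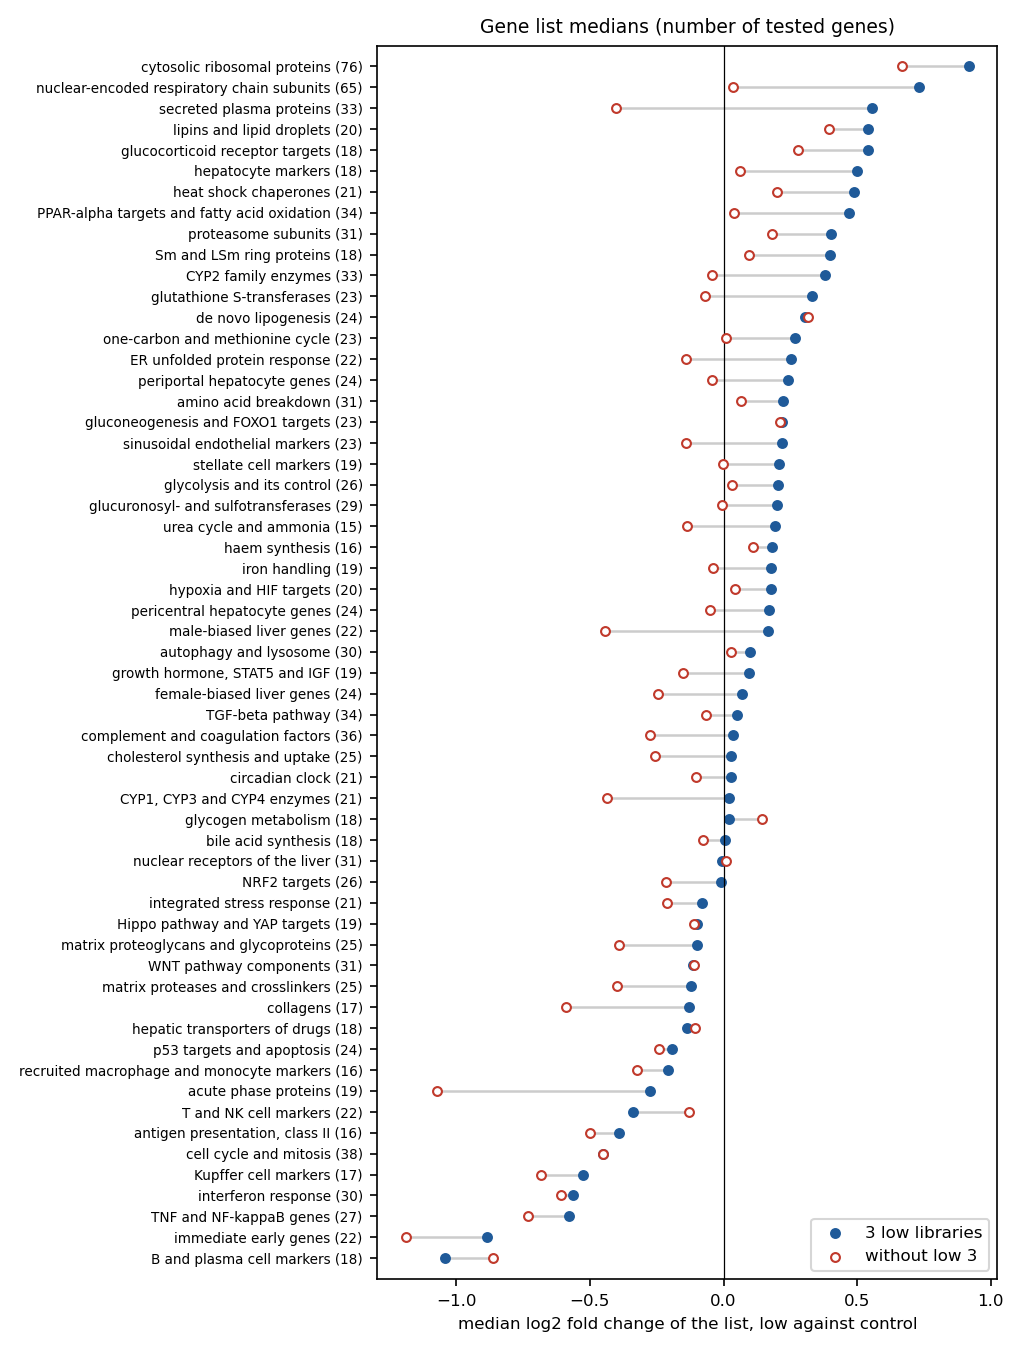
Median log2 difference between low and control (x axis) of each list with at least 15 tested genes (number in brackets), with 3 low libraries (filled) and without low 3 (open). Open and filled points lie close for cell cycle genes (both -0.45) and far apart for plasma proteins (-0.40 and 0.56).

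The low dose was then set against the 2 higher doses, to ask which genes differ between doses of curcumin. edgeR called 0 of 16839 genes (0.0%) between low and medium, with 270 higher (1.6%) and 273 lower (1.62%) at an unadjusted p under 0.05. Between low and high it called 0 (0.0%), with 225 higher (1.34%) and 373 lower (2.22%) at an unadjusted p under 0.05. DESeq2 called 3 higher (0.0157%) and 8 lower (0.0418%) against medium, and 5 higher (0.0188%) and 12 lower (0.0452%) against high, while limma voom called 0 and 4. Tsr1, a ribosome assembly factor, was at 4.84, 4.02 and 3.32 CPM in low and 1.81, 1.44 and 1.79 CPM in medium (1.27 ± 0.26). Lcn2, the acute phase siderophore-binding protein, was at 0.663, 0.671 and 2.53 CPM in low and 5.24, 4.15 and 24.8 CPM in medium (-3.08 ± 0.84). Cyp7a1 had 60.4, 63.6 and 19.5 CPM in medium, all above the low libraries (-1.98 ± 0.57). Against the high dose, Abcb6, a porphyrin transporter, had 22.4, 19.2 and 16.8 CPM in low and 6.99, 8.95 and 6.40 CPM in high (1.39 ± 0.27). Mt1 had 368, 171 and 270 CPM and Mt2 196, 98.3 and 132 CPM in high, all above the low libraries (-1.82 ± 0.43 and -1.98 ± 0.47), so for metallothioneins the low libraries lay below both the controls and the high libraries. For Mfsd2a and Alas1 the groups given curcumin overlapped, with low minus medium at -0.10 ± 0.48 and -0.49 ± 0.37. These comparisons share the low libraries with the one above.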

How the data were processed

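Per the labels' protocols, RNA was extracted with TRIzol and made into libraries with a Hieff kit. The authors deposited 1 table of raw, unnormalized counts for 56923 Ensembl IDs, of which 52073 (91.5%) had a symbol in GENCODE M21. The submitters' processing notes list StringTie 2.2.1, STAR 2.7.10b and fastp 0.23.4 with genome build mm39. They do not say which of them counted reads, nor how strand and multiply fitting reads were handled, so near-identical or overlapping genes are uncertain. All 12 columns matched labels. As the reference tables are on GRCm38, they served for names, lengths and promoter windows only.

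The 12 libraries (36015134 to 70376474 counts) were fitted together in R 4.3.3 with edgeR 4.0.16: filterByExpr (16839 genes), TMM, robust quasi-likelihood fit, glmQLFTest, Benjamini-Hochberg adjustment and a threshold of 0.05. At 3 counts, CPM before TMM scaling was 0.0426 to 0.0755 in these 6 libraries. DESeq2 1.42.0 and limma 3.58.1 voom were alternatives, as were other scalings, no filter on low counts, the 6 libraries alone, a replicate block and leaving out each library. A fit without both low 3 and control 2, and a fit with the mitochondrial share as a covariate, were chosen after seeing the data. The mitochondrial share covers mitochondrially encoded genes, and 11 nuclear copies (BLAST+ 2.17.0, identity at least 95% over at least 80%) were set apart. P-values measure the spread between these mice only. No 2 libraries within the control or the low group agreed within sampling noise (the lowest chi-square over its degrees of freedom was 38.5, for low 1 and 2). The labels do not say that replicate numbers pair the samples. Deviations of same-numbered libraries from their group means correlated at -0.08, -0.06 and -0.17. With 3 libraries a group these values cannot decide whether the numbers pair the samples. Tested on simulated counts for low against control over 16839 genes, edgeR recovered 4.48% of 67 changes of 2-fold, 74.6% of 67 of 4-fold and 92.4% of 66 of 8-fold, with 5 false calls. The changed genes were drawn from those with an average log2 CPM of at least 1, so recovery of scarcer genes was not assessed. Counts were drawn independently for each gene, without the departure of low 3.

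The members and the 71 gene lists were chosen with earlier results of these data known. Named genes are the 15 per direction with the smallest p at a mean log2 CPM of at least 1 (without predicted loci, immunoglobulin or T cell receptor segments, pseudogenes and mitochondrial genes), up to 4 per list with the smallest p, the DESeq2 calls, the first 5 per direction between doses, Slamf8, Tnf and cell markers, and the 8 per direction with the largest gap of low 3 to low 1 and 2. Some genes that these rules name are not reported here. Alb and Cyp2e1 were named for their role after their values were seen. Lists are described by counts and medians, without a test. Of the 5 promoter motifs searched, the κB motif and the glucocorticoid response element are given by name only.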

Additional observations from a re-analysis of the deposited data

How the results depend on the processing

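The count of genes called between low and control was 0 under 13 of 17 alternatives, 32 with DESeq2, 1 on the 6 libraries alone and 1 without low 3 and control 2. Leaving out single libraries gave 0 to 2 (2 without low 3). Between low and medium it was 11 with DESeq2 and 0 to 2 with single libraries left out, and between low and high 17 with DESeq2, 4 with limma voom and 0 to 3. The replicate block gave 0 calls in all 3 comparisons. The difference in mitochondrial share ran from -7.89 to 2.67 percentage points with single libraries left out, and turned positive without low 3. Of 99 single-gene differences 96 kept their direction under every alternative run, and 28 of 1667 refits brought one past the threshold, 22 of them with DESeq2. These genes were largely picked by small p in the same libraries, which favours a kept direction. Alb went to -0.26 with limma voom, to -0.19 with the mitochondrial share as a covariate and to -0.85 without low 3 and control 2, and ran from -0.69 to 1.44 with single libraries left out. With libraries left out, Cyp2e1 ran from -0.040 (without low 3 and control 2) to 0.70, and Mfsd2a between low and medium from -0.27 to 0.15 (without medium 3). Cyp2e1 was at 0.75 with library totals as the scale. Scaling by library totals moved the median of all genes from 0.01 to 0.11, and totals without mitochondrial genes and their copies moved it to -0.14. Of 70 lists with at least 5 tested genes, 12 had a median above 0 and 13 below 0 under all 17 alternatives, and 45 had both signs. Cages, the hour of sampling and any vehicle gavage are not given by group. With 3 libraries a group, simulated 2-fold changes at an average log2 CPM of at least 1 were recovered in 4.48% of cases.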

Other observations

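Some gene groups outside the comparisons above held separated groups. In one-carbon metabolism 5 of 23 genes were non-overlapping and lower and 1 non-overlapping and higher, although the list median was 0.27 (0.01 without low 3). Among hypoxia genes Epas1, which encodes the oxygen-regulated factor HIF-2α, had 16, 17.1 and 18 CPM in control and 24.0, 24.8 and 26.9 CPM in low (0.57 ± 0.24). Kdm3a, a histone demethylase induced by hypoxia, had 17.1, 14.0 and 16.8 CPM in control and 10.3, 10.3 and 9.11 CPM in low (-0.69 ± 0.27). Both were non-overlapping, in opposite directions, at edgeR adjusted p = 0.813 and 0.8. Fth1, the ferritin heavy chain, had 138, 214 and 132 CPM in control and 246, 444 and 241 CPM in low (0.94 ± 0.49), and Map1lc3a, an autophagosome protein, had 3.20, 2.7 and 1.87 CPM against 3.90, 8.02 and 7.37 CPM (1.32 ± 0.51). Tnf and Slamf8 were scarce and overlapped, at 0.680, 1.47 and 0.290 CPM against 0.117, 0.363 and 0.188 CPM for Tnf (-1.86 ± 0.69, and -1.11 without control 2), and at 0.831, 0.816 and 0.312 CPM against 0.234, 0.335 and 0.265 CPM for Slamf8 (-1.22 ± 0.86).

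Of the 32 genes that DESeq2 called, 29 had an edgeR unadjusted p under 0.05, and 9 had 1 group at 0 in all 3 libraries. Xrcc2, a DNA repair gene, had 10, 13 and 21 counts in control, 12, 17 and 19 in medium, 39, 6 and 18 in high and 0, 0 and 0 in low (DESeq2 adjusted p = 0.00749; edgeR adjusted p = 0.71). Against a floor of 3 counts over the low group the log2 difference was -3.89 or lower. Adnp, a chromatin regulator, had 6, 1243 and 597 counts in control, 0 in all low libraries, 12, 0 and 0 in medium and 13, 1267 and 0 in high. Thus 2 control libraries and 1 high library held nearly all of its counts. Its locus overlaps a second annotated gene. Ip6k1, an inositol hexakisphosphate kinase whose locus also overlaps other annotated genes, had 62.0, 57.6 and 74.5 CPM in control and 2.97, 2.24 and 44.5 CPM in low. It was at -1.96 ± 0.85 with low 3 (edgeR adjusted p = 0.813) and at -4.64 without it (edgeR adjusted p = 0.00175).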
